A study of Mus musculus with 32 samples.

Results

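A set of 37 genes of synaptic vesicles and presynaptic release was taken by gene name from a table of 57010 gene rows, and each name was found once. RNA came from brain tissue homogenates of 32 humanized APOE mice, homozygous for human APOE3 (E3/3) or APOE4 (E4/4). The groups were E4/4 mice given D4F (8 mice), E4/4 mice given PBS (8), E3/3 mice given D4F (8) and E3/3 mice given PBS (8), each with 4 females and 4 males. D4F, called 4F in the series text, is a peptide that mimics apolipoprotein A-I of HDL, and PBS was its vehicle. It was given daily for 12 weeks to mice of 10.5 months, which were 13.2 months old at the end. The series set out to compare the APOE genotypes and to ask what the peptide does in each. All groups carry a human APOE, so none has the mouse gene alone. The sources used here give neither the strain nor the part of the brain taken.

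Nerve terminals release neurotransmitter by fusing synaptic vesicles with the plasma membrane and then retrieving the vesicle membrane. Synapsins hold vesicles in a reserve pool, active zone proteins dock and prime them, SNARE proteins drive fusion when synaptotagmins bind calcium, and dynamin with its partners brings the membrane back. The genes for this machinery are expressed in nearly all neurons of the brain, with family members that differ between brain regions and neuron types.

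Libraries held 17.8 to 45.1 M counts (mega-counts), and 11 held fewer than 26 M: 2 of E4/4 D4F, 1 of E4/4 PBS, 2 of E3/3 D4F and 6 of E3/3 PBS. Depth was thus uneven between the genotypes in vehicle mice. The deposited library names are numbers, and those of all E4/4 libraries are lower than those of all E3/3 libraries. Genotype therefore cannot be told apart from whatever that numbering follows, and its part was not tested. Levels also leaned with GC content, by a mean slope of −0.0065 log2 units per percent GC in E4/4 PBS libraries and 0.0127 in E3/3 PBS libraries. Across the presynaptic genes 2 libraries stood apart from their arm most often. They were female E4/4 PBS mouse 1 on the high side and female E3/3 PBS mouse 1 on the low side. The counts in each comparison are given with and without both. As both were picked by values of these genes, a change in the counts without them is not a result. The mouse Apoe row lay between 0.958 and 3.40 CPM (counts scaled to library size) in all 32 libraries, which does not tell APOE3 from APOE4. Of 12 general neuron markers, 10 oligodendrocyte markers and 10 astrocyte markers, none was at 0 in every library.

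All 37 genes passed the filter on low counts. Per kilobase of exon, the mean level over the 32 mice was highest for Snap25 (428 CPM per kb), a SNARE of the plasma membrane, followed by Vamp2 (319), the SNARE of the vesicle, and Syp (286), the vesicle protein synaptophysin. The lowest levels per kilobase belonged to Syn3 (0.558 CPM per kb), Sypl (4.50) and Sncg (5.72). Averaged over the arms, the coefficient of variation between mice ran from 7.58% for Sv2a to 46.6% for Sncg, with a median of 12.9% over the 37 genes. Together the 37 genes took a median of 1.73% of all counts in E4/4 D4F mice, 1.70% in E4/4 PBS mice, 1.99% in E3/3 D4F mice and 2.05% in E3/3 PBS mice.

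The bases just before the RefSeq start of 4 genes are printed here. In 3 of these genes the RNA was lower in E4/4 vehicle mice and in 1, Synpr, it was higher (edgeR adjusted p below 0.05). The values are given in the paragraphs on each role. RefSeq (GRCm38.p6) gives a start for 30 of the 37 genes, and the window is the 250 bases before it, on the gene's strand, 5′ to 3′. Capitals mark matches on either strand to the GC box GGGCGG (read CCGCCC on the other strand), the cAMP response element TGACGTCA, the TATA box TATAAA and TTCAGCACC, the left part of the site bound by the repressor REST.
Syn1 (chrX:20920919-20921168, minus strand): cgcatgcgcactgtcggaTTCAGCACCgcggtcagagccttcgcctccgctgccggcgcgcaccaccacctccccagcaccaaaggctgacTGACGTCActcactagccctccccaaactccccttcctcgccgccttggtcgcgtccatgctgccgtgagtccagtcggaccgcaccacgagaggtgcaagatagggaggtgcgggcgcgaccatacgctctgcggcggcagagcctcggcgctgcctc
Syp (chrX:7638330-7638579, plus strand): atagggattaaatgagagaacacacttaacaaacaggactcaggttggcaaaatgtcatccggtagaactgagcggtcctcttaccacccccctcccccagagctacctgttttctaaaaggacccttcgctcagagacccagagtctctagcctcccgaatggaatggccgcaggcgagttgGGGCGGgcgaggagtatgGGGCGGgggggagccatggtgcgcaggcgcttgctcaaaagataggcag
Epn1 (chr7:5079985-5080234, plus strand): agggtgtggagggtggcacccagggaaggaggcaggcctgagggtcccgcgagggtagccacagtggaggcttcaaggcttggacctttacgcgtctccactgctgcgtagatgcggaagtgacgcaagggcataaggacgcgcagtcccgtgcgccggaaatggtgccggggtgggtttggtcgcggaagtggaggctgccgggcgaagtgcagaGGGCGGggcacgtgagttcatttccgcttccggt
Synpr (chr14:13284530-13284779, plus strand): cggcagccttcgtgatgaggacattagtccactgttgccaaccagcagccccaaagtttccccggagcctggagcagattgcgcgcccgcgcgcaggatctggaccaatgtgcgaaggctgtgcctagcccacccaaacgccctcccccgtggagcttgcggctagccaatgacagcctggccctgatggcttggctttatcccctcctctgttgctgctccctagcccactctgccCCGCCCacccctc
By the GENCODE M21 annotation (GRCm38), Syn1 (ENSMUSG00000037217.15) lies at chrX:20860511-20921004, Syp (ENSMUSG00000031144.15) lies at chrX:7638471-7653256, Epn1 (ENSMUSG00000035203.16) lies at chr7:5080235-5098178 and Synpr (ENSMUSG00000056296.17) at chr14:13284780-13616340. The printed windows lie just upstream of a start given by RefSeq, which can differ from the GENCODE start. The Syn1 and Syp windows reach past the GENCODE start into the annotated gene, and both GC boxes of Syp lie there. Among the 30 windows, those of Cplx2 and Nrxn3 lie far from the GENCODE start of the gene. The Syn1 window held no GC box. It held the left part of a REST site from position −232 and the cAMP response element from position −159, relative to the RefSeq start. These do not overlap. Syp had a pair of GC boxes, and Epn1 and Synpr had 1 each. A GC box stood in 19 of the 30 windows (63.3%), against 32.7% of all 32851 windows of this length. It stood in 8 of 15 genes called lower, 2 of 2 called higher and 9 of 13 not called. The cAMP response element and the left part of the REST site were each in 1 of the 30 windows, against 1.55% and 0.301% of all windows. The TATA box was in 1 of the 30 (Sv2b), against 12.4% of all. The median GC content of the windows was 61.6% over the 30 genes and 52.4% over all.

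The first comparison asks how E4/4 and E3/3 brains differ under vehicle. Of the 37 genes, 19 were lower and 2 were higher in E4/4 PBS than in E3/3 PBS mice, by edgeR's quasi-likelihood test at an adjusted p below 0.05 over all 20298 genes tested. These are 51.4% and 5.41% of the 37 genes. Over all genes tested, 10.5% were called lower, 9.89% higher and 20.4% in either direction. The 37 genes were chosen with earlier results of these data known, so the shares describe the set and do not test it. The median log2 fold change was −0.22 over the 37 genes and 0.02 over all genes tested. Values below are TMM-scaled CPM, given as the span over the 8 mice of an arm, and log2 fold changes are E4/4 over E3/3 with their standard error.

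**Figure D1:**
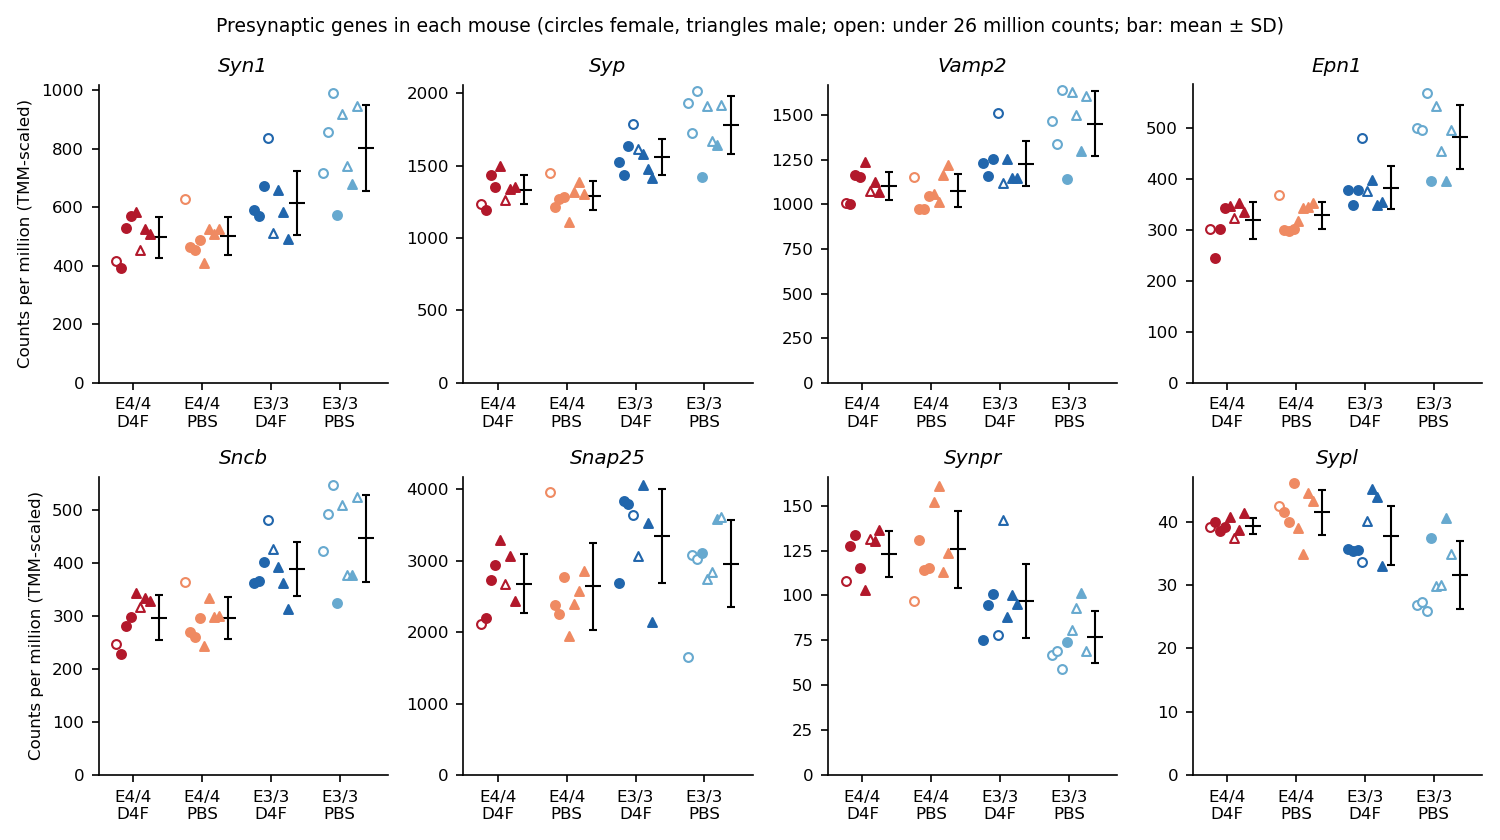
TMM-scaled CPM (vertical axis, from 0) of 8 presynaptic genes in each mouse, by arm along the horizontal axis; circles are females, triangles males, open symbols libraries under 26 M counts, and bars the mean ± SD of 8 mice. In Epn1 every E4/4 PBS mouse sits below every E3/3 PBS mouse, in Synpr 7 of 8 E4/4 PBS mice sit above every E3/3 PBS mouse, and Snap25 has 1 high E4/4 PBS and 1 low E3/3 PBS mouse.

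Among the synapsins, which tether vesicles to each other and to actin, 1 of 3 was lower. Syn1 spanned 408 to 627 CPM (median 498) in E4/4 PBS mice, against 573 to 990.0 CPM (median 799) in E3/3 PBS mice. All E4/4 PBS mice but the female mouse 1 lay below every E3/3 PBS mouse, and the log2 fold change was −0.68 ± 0.11 (adjusted p = 0.000139). Its difference was −0.63 ± 0.16 in females and −0.74 ± 0.16 in males. Syn2 averaged 459.6 ± 28.6 CPM in E4/4 PBS and 477 ± 52.3 CPM in E3/3 PBS mice (SD, n = 8 each), a log2 fold change of −0.05 ± 0.07 (adjusted p = 0.624). Syn3 averaged 6.74 ± 1.53 CPM in E4/4 PBS and 7.72 ± 1.36 CPM in E3/3 PBS mice, with −0.20 ± 0.13 (adjusted p = 0.323). Neither Syn2 nor Syn3 passed.

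The vesicle membrane proteins went in both directions: of 8, 2 were lower and 2 higher. Syp, the abundant vesicle protein synaptophysin, spanned 1112 to 1447 CPM (median 1293) in E4/4 PBS mice, against 1423 to 2015 CPM (median 1821) in E3/3 PBS mice. In 7 of 8 E4/4 PBS mice Syp was below every E3/3 PBS mouse, with a log2 fold change of −0.46 ± 0.07 (adjusted p = 6.33e-05). Syngr1, the vesicle protein synaptogyrin 1, spanned 347 to 566 CPM (median 397) in E4/4 PBS mice, against 494 to 648 CPM (median 535) in E3/3 PBS mice. The highest of these E4/4 values was the female mouse 1, the other 7 lay below every E3/3 PBS mouse, and the log2 fold change was −0.41 ± 0.10 (adjusted p = 0.00577).

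Synpr encodes synaptoporin, a relative of synaptophysin found at a subset of terminals. It spanned 97.0 to 161 CPM (median 119) in E4/4 PBS mice, against 58.9 to 102 CPM (median 71.7) in E3/3 PBS mice. In 7 of 8 E4/4 PBS mice it lay above every E3/3 PBS mouse, and its log2 fold change of 0.72 ± 0.10 (adjusted p = 3.98e-05) had the smallest unadjusted p of the 37 genes. Sypl, a synaptophysin-like protein also made outside neurons, spanned 34.9 to 46.1 CPM (median 42.0) in E4/4 PBS mice, against 25.9 to 40.6 CPM (median 29.9) in E3/3 PBS mice. The arms overlapped, with 5 E4/4 PBS mice above every E3/3 PBS mouse, and the log2 fold change was 0.39 ± 0.08 (adjusted p = 0.000577).

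The other 4 vesicle membrane genes did not pass. Sv2c, an SV2 glycoprotein of basal ganglia and other subcortical terminals, averaged 106 ± 43.3 CPM in E4/4 PBS and 69.9 ± 24.9 CPM in E3/3 PBS mice, and its log2 fold change of 0.61 ± 0.29 (adjusted p = 0.139) had a wide error. Sv2a, the widespread SV2 form and the binding site of the antiseizure drug levetiracetam, had −0.11 ± 0.06 (adjusted p = 0.206), and Sv2b, the form common in forebrain excitatory terminals, had −0.28 ± 0.15 (adjusted p = 0.195). Syngr3, a synaptogyrin that binds the dopamine transporter, had −0.07 ± 0.07 (adjusted p = 0.493).

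Of 5 calcium sensors and Rab3 effectors, 3 were lower. Rph3a, rabphilin 3A, which binds Rab3 on vesicles, spanned 256 to 572 CPM (median 327) in E4/4 PBS mice, against 391 to 726 CPM (median 578) in E3/3 PBS mice. Apart from the female E4/4 PBS mouse 1 and the female E3/3 PBS mouse 1 the arms did not overlap, 5 E4/4 PBS mice lay below every E3/3 PBS mouse, and the log2 fold change was −0.68 ± 0.16 (adjusted p = 0.0043). Doc2a, a calcium sensor of spontaneous and asynchronous release, spanned 22.9 to 41.0 CPM (median 33.1) in E4/4 PBS mice, against 31.9 to 67.2 CPM (median 48.3) in E3/3 PBS mice. Only 2 E4/4 PBS mice lay below every E3/3 PBS mouse, and the log2 fold change was −0.48 ± 0.16 (adjusted p = 0.0341). Syt7, a slow calcium sensor of facilitation and vesicle refilling, spanned 313 to 371 CPM (median 351) in E4/4 PBS mice, against 321 to 473 CPM (median 393) in E3/3 PBS mice. Here too 2 E4/4 PBS mice were below every E3/3 PBS mouse, with a log2 fold change of −0.19 ± 0.07 (adjusted p = 0.0463). Leaving out 1 library at a time, of 32, ended the call of Syt7 in 23 fits (adjusted p up to 0.157) and that of Doc2a in 9 (up to 0.124).

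The fast calcium sensors did not pass. Syt1, the main one of the forebrain, averaged 1409.9 ± 197 CPM in E4/4 PBS and 1584 ± 168 CPM in E3/3 PBS mice, and its log2 fold change was −0.17 ± 0.09 (adjusted p = 0.203). Syt2, the form of hindbrain and fast inhibitory terminals, averaged 45.8 ± 20.7 CPM in E4/4 PBS and 52.4 ± 17.01 CPM in E3/3 PBS mice, and its log2 fold change was −0.22 ± 0.26 (adjusted p = 0.596).

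Of 8 SNAREs and SNARE helpers, 5 were lower and none was higher. Vamp2, the vesicle SNARE synaptobrevin 2, spanned 974 to 1219.6 CPM (median 1053) in E4/4 PBS mice, against 1139.6 to 1638 CPM (median 1485) in E3/3 PBS mice. In 5 E4/4 PBS mice it lay below every E3/3 PBS mouse, and the log2 fold change was −0.43 ± 0.07 (adjusted p = 0.000143). Stx1a, syntaxin 1A, a plasma membrane SNARE, spanned 122 to 317 CPM (median 188) in E4/4 PBS mice, against 209.6 to 429 CPM (median 334) in E3/3 PBS mice. The arms of Stx1a overlapped only through the female E4/4 PBS mouse 1 and the female E3/3 PBS mouse 1, with a log2 fold change of −0.69 ± 0.18 (adjusted p = 0.00748).

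Cplx1 and Cplx2 encode complexins, which clamp and then assist the assembled SNARE complex. Cplx1 spanned 452 to 693 CPM (median 532) in E4/4 PBS mice, against 600.3 to 797 CPM (median 674) in E3/3 PBS mice. All but 1 of the E4/4 PBS mice were below every E3/3 PBS mouse, and its log2 fold change was −0.34 ± 0.09 (adjusted p = 0.00581). Cplx2 spanned 935 to 1428 CPM (median 1096) in E4/4 PBS mice, against 1188 to 1655 CPM (median 1323) in E3/3 PBS mice. Its arms overlapped, and its log2 fold change of −0.22 ± 0.08 (adjusted p = 0.0487) lay close to the threshold and was lost in 25 of the 32 fits without 1 library (adjusted p up to 0.173). Nsf, the ATPase that takes spent SNARE complexes apart, spanned 512 to 755 CPM (median 557) in E4/4 PBS mice, against 616 to 783 CPM (median 674) in E3/3 PBS mice. All E4/4 PBS mice but the female mouse 1 lay below every E3/3 PBS mouse, and the log2 fold change was −0.26 ± 0.07 (adjusted p = 0.0131).

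Snap25, the most abundant gene of the set per kilobase, did not pass: it spanned 1946 to 3967 CPM (median 2479) in E4/4 PBS mice, against 1659 to 3608 CPM (median 3057) in E3/3 PBS mice. Its lowest value of all 4 arms was in the female E3/3 PBS mouse 1, its highest vehicle value was in the female E4/4 PBS mouse 1, and the log2 fold change was −0.16 ± 0.14 (adjusted p = 0.456). Vamp1, the vesicle SNARE of motor and fast-spiking neurons, had −0.30 ± 0.17 (adjusted p = 0.24), and Napb, the brain form of the adaptor that recruits Nsf, had −0.06 ± 0.08 (adjusted p = 0.64).

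Of 5 active zone and priming genes, 3 were lower. Rab3a, the vesicle GTPase that binds Rims and rabphilin, spanned 432 to 510.3 CPM (median 486) in E4/4 PBS mice, against 499 to 652 CPM (median 596) in E3/3 PBS mice. In 5 E4/4 PBS mice Rab3a was below every E3/3 PBS mouse, and the log2 fold change was −0.31 ± 0.07 (adjusted p = 0.00196). Bsn, the giant scaffold Bassoon, spanned 277 to 485 CPM (median 306) in E4/4 PBS mice, against 301 to 506 CPM (median 448) in E3/3 PBS mice. The highest E4/4 and lowest E3/3 values, both in a female mouse 1, crossed over and the others did not, and the log2 fold change was −0.44 ± 0.12 (adjusted p = 0.0084). Unc13a, the priming factor Munc13-1, spanned 383 to 577 CPM (median 414) in E4/4 PBS mice, against 366 to 633 CPM (median 522) in E3/3 PBS mice. None of the E4/4 PBS mice lay below every E3/3 PBS mouse, with the female E3/3 PBS mouse 1 the lowest of both arms, and the log2 fold change was −0.26 ± 0.08 (adjusted p = 0.0268). That call was lost in 8 of the 32 fits without 1 library (adjusted p up to 0.118). Rims1, which links calcium channels to vesicles, had −0.19 ± 0.15 (adjusted p = 0.383), and Pclo, the scaffold Piccolo, had −0.07 ± 0.10 (adjusted p = 0.674).

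Of the synucleins, Sncb (beta-synuclein, a vesicle-associated relative of alpha-synuclein) was lower and spanned 244 to 365 CPM (median 298) in E4/4 PBS mice, against 326 to 548 CPM (median 458) in E3/3 PBS mice. In 6 E4/4 PBS mice it lay below every E3/3 PBS mouse, and the log2 fold change was −0.59 ± 0.10 (adjusted p = 0.000188). Sncg (gamma-synuclein), at 5.09 ± 2.10 CPM in E4/4 PBS and 5.06 ± 2.42 CPM in E3/3 PBS mice, had 0.01 ± 0.33 (adjusted p = 0.983). Of the neurexins, adhesion receptors that organise the terminal, Nrxn2 spanned 178 to 258 CPM (median 205) in E4/4 PBS mice, against 245 to 359 CPM (median 281) in E3/3 PBS mice. In 6 E4/4 PBS mice Nrxn2 was below every E3/3 PBS mouse, with a log2 fold change of −0.39 ± 0.08 (adjusted p = 0.000741). Nrxn3 had 0.10 ± 0.07 (adjusted p = 0.322).

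Of 4 endocytosis genes, 3 were lower. Epn1, the clathrin adaptor epsin 1, spanned 299 to 369 CPM (median 331) in E4/4 PBS mice, against 397 to 570.1 CPM (median 497) in E3/3 PBS mice. Its arms did not overlap, the only such case among the 37 genes, and the log2 fold change was −0.55 ± 0.08 (adjusted p = 3.98e-05). Over all genes tested, 0.695% had all E4/4 PBS mice below all E3/3 PBS mice and 0.325% had them all above. Dnm1, the GTPase dynamin 1 that cuts vesicles from the membrane, spanned 736 to 1175 CPM (median 835) in E4/4 PBS mice, against 986 to 1492 CPM (median 1202) in E3/3 PBS mice. In 7 E4/4 PBS mice Dnm1 was below every E3/3 PBS mouse, the female mouse 1 was not, and the log2 fold change was −0.49 ± 0.10 (adjusted p = 0.00093). Amph, amphiphysin, which recruits dynamin, spanned 145 to 207 CPM (median 173) in E4/4 PBS mice, against 178 to 227 CPM (median 197) in E3/3 PBS mice. The arms of Amph overlapped, with 6 E4/4 PBS mice below every E3/3 PBS mouse and a log2 fold change of −0.22 ± 0.08 (adjusted p = 0.0429), lost in 21 of the 32 fits without 1 library (adjusted p up to 0.132). Synj1, the phosphatase synaptojanin 1 that uncoats vesicles, had 0.03 ± 0.08 (adjusted p = 0.8).

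**Figure D2:**
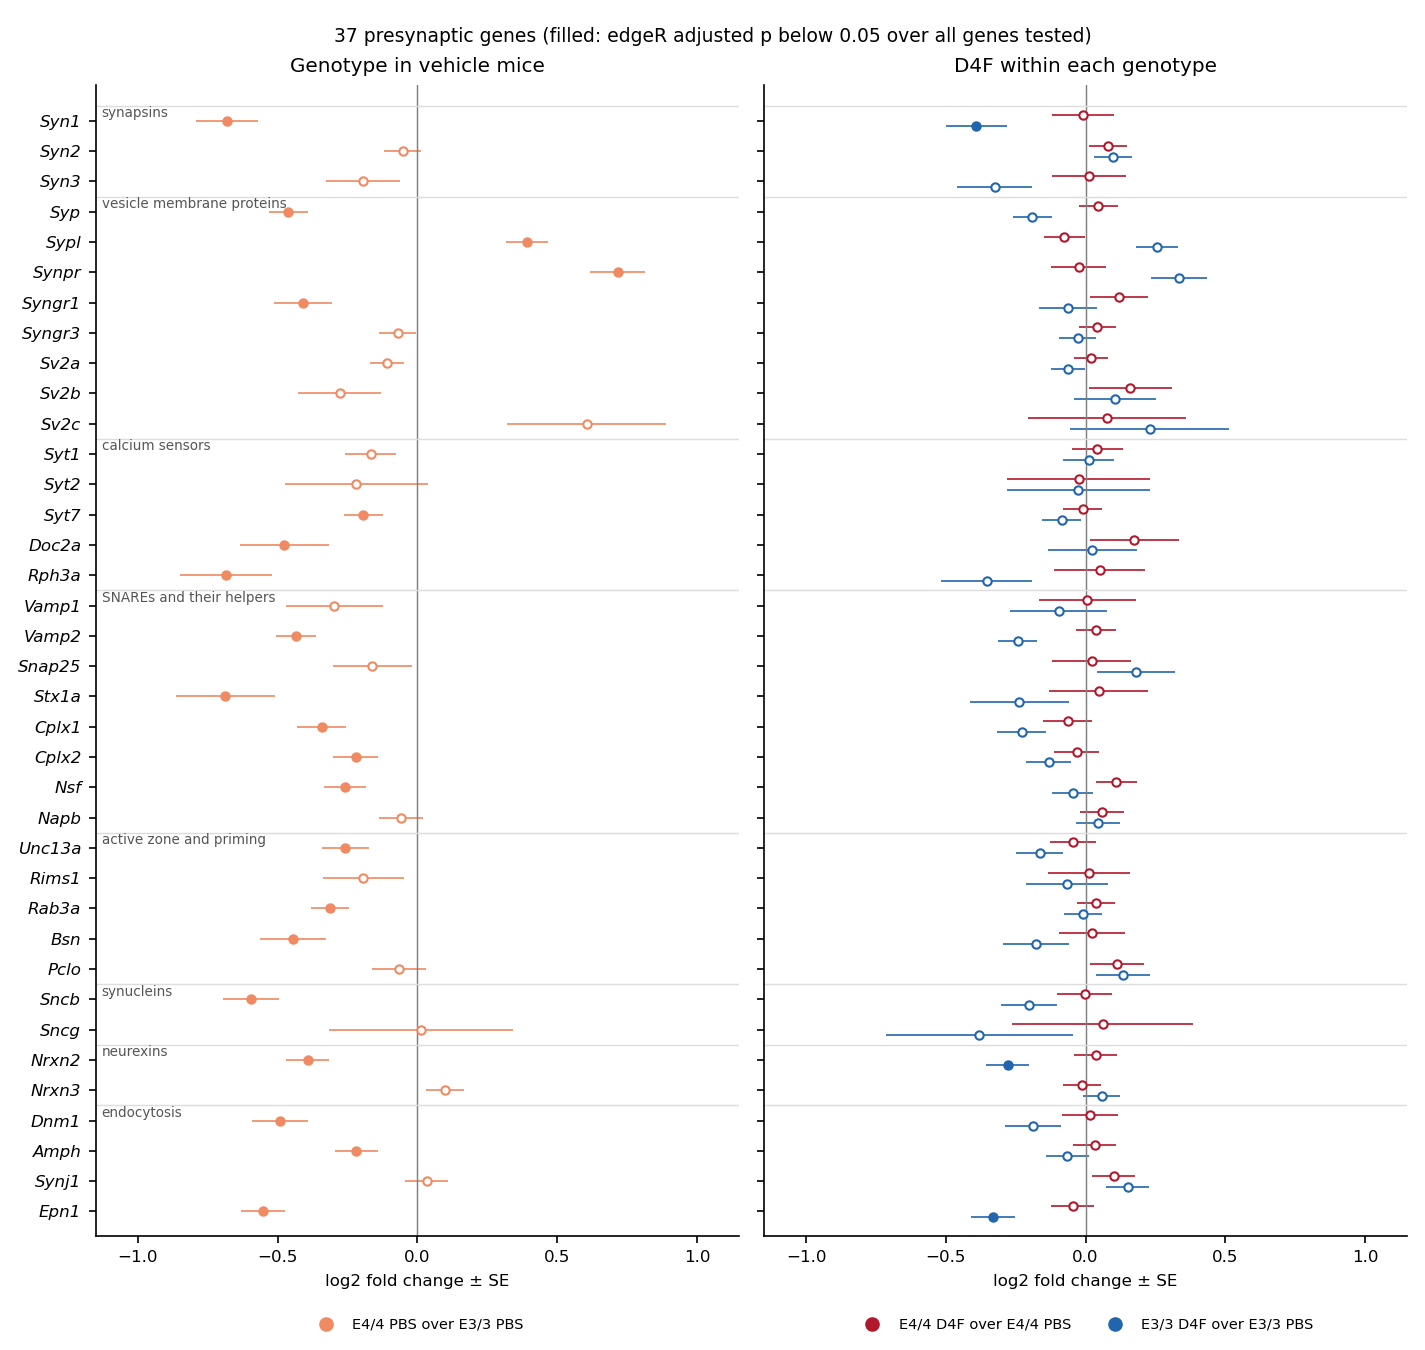
Log2 fold change ± SE (horizontal axis) of the 37 genes (rows, grouped by role): E4/4 PBS over E3/3 PBS on the left, D4F over PBS within E4/4 (red) and within E3/3 (blue) on the right; filled points passed an edgeR adjusted p of 0.05 over all genes tested. On the left 19 filled points lie below 0 and 2 above; on the right 3 blue points and no red point are filled.

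Few mice of one genotype remain when depth is held alike, so values within a depth class are given without a test. In libraries of at least 26 M counts, Syn1 spanned 408 to 527 CPM in 7 E4/4 PBS mice, against 573 and 679 CPM in 2 E3/3 PBS mice. In the smaller libraries it was 627 CPM in 1 E4/4 PBS mouse, against 716 to 990.0 CPM in 6 E3/3 PBS mice. The arms of Syn1 were thus apart in both classes, but the smaller libraries include 1 E4/4 PBS mouse, the female mouse 1 that stood apart. Synpr spanned 113 to 161 CPM in E4/4 PBS mice, against 74.1 and 102 CPM in E3/3 PBS mice, in the larger libraries. In the smaller ones Synpr was 97.0 CPM in the E4/4 PBS mouse, against 58.9 to 93.1 CPM in E3/3 PBS mice. Syp, in the larger libraries, spanned 1112 to 1384 CPM in E4/4 PBS mice, against 1423 and 1641 CPM in E3/3 PBS mice. Neither Synpr nor Syp overlapped between genotypes there. Vamp2 did overlap in the larger libraries, at 974 to 1219.6 CPM in E4/4 PBS mice, against 1139.6 and 1298 CPM in E3/3 PBS mice. Sypl overlapped there too, at 34.9 to 46.1 CPM in E4/4 PBS mice, against 37.5 and 40.6 CPM in E3/3 PBS mice. Levels also differed between depth classes within the E3/3 PBS arm. Syn1 averaged 862 CPM in its 6 smaller and 626 CPM in its 2 larger libraries. In the same order Syp averaged 1862 and 1532 CPM, Vamp2 1531 and 1219, Synpr 73.1 and 87.8, and Sypl 29.1 and 39.0. The part of depth in these levels was not tested.

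The count of called genes was smaller where depth or base composition entered the test. It was smaller over all genes too. With depth class in the model 11 of the 21 passed, among them Syngr1, Rph3a and Nrxn2, where 6.34% of all genes tested were called. With each library's trend with GC content and gene length removed 11 passed, and Syngr1 and Nrxn2 were not among them; over all genes 13.4% were called. When only the higher-depth libraries were fitted, none passed (4 genes over the whole table did), and all 21 kept their direction in that fit, which has 2 E3/3 PBS mice. The median log2 fold change of the 37 genes was −0.21 with depth class, −0.22 with the trends removed and −0.25 in the higher-depth libraries, against −0.22 without these changes. Single genes shifted more in size. Over 12 alternatives, besides those without 1 library, the log2 fold change of Syn1 ran from −0.76 to −0.36. That of Syp ran from −0.54 to −0.25, Vamp2 from −0.45 to −0.19 and Epn1 from −0.59 to −0.28. Synpr ran from 0.50 to 0.75 and Sypl from 0.11 to 0.41. With depth class and the GC and length trends handled together, an alternative chosen after seeing the data, 5 passed: Syn1, Syp, Synpr, Vamp2 and Epn1. Over all genes 2.81% were then called, and the median of the 37 was −0.18. By edgeR the log2 fold change was then −0.46 for Syn1 (adjusted p = 0.034) and −0.43 for Syp (adjusted p = 0.00886). It was 0.53 for Synpr (adjusted p = 0.0259), −0.29 for Vamp2 (adjusted p = 0.029) and −0.28 for Epn1 (adjusted p = 0.0345). The last fit left out the female E4/4 PBS mouse 1 and the female E3/3 PBS mouse 1, also chosen after seeing the data. In it 24 genes were lower and 3 higher, among them all 21, and the median log2 fold change was −0.35. Both mice were picked for values of these genes that lay toward the other arm, so leaving them out widens the difference. The larger count and median are thus not a result. The calls over all genes were also more, at 13% lower and 11.9% higher.

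**Figure D3:**
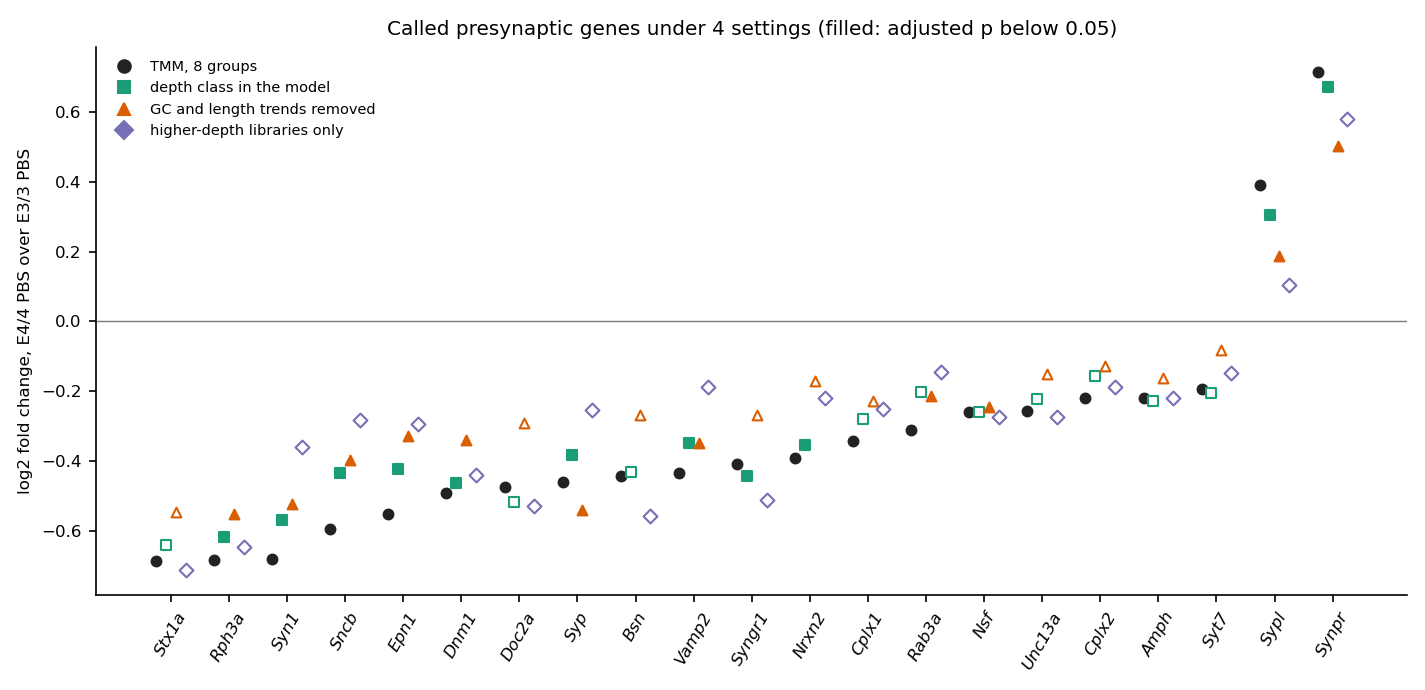
Log2 fold change of E4/4 PBS over E3/3 PBS (vertical axis) for the 21 called genes (horizontal axis) under 4 settings; filled symbols passed an adjusted p of 0.05. Every symbol of a gene lies on the same side of 0, and no diamond (libraries of at least 26 M counts) is filled.

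The difference ran with the base composition of the transcripts. The median GC content of the longest transcript was 56.0% for the 19 genes called lower, 38.8% for the 2 called higher and 47.2% for the 16 not called. Across the 37 genes the log2 fold change and GC content had a Pearson r of −0.66 and a Spearman rho of −0.65; across the 19173 tested genes with a GC value these were −0.31 and −0.39. Genes are not independent replicates, and the points share the same libraries and depths. Syp is off this line, with a GC content of 45.4% and a log2 fold change of −0.46. Snap25, at 38.7% GC, was not called, while Synpr at 38.9% and Sypl at 38.8% were called higher. What part GC content has in the difference was not tested beyond the fits with its trend removed.

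**Figure D4:**
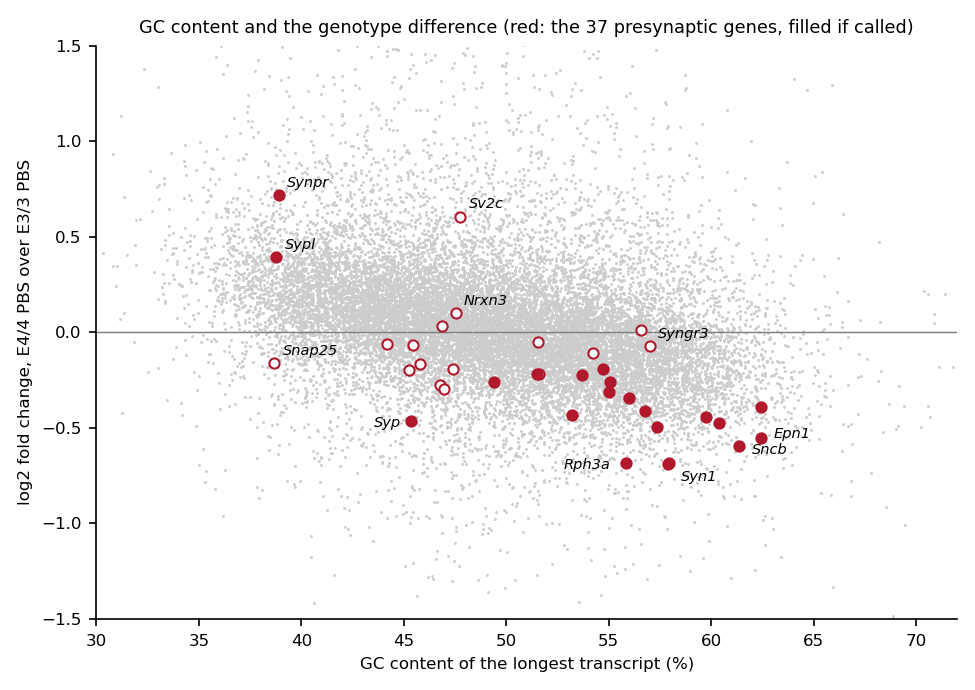
Log2 fold change of E4/4 PBS over E3/3 PBS (vertical axis) against the GC content of the longest transcript (horizontal axis) for the genes tested (grey) and the 37 presynaptic genes (red, filled if called); 145 of 19173 genes lie outside the window. The filled points run from Synpr and Sypl at the upper left to Epn1 and Sncb at the lower right.

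Markers of cell types and regions moved in the same comparison. In bulk tissue, fewer cells of a type and less RNA per cell cannot be told apart. Of 12 general neuron markers 8 were lower and none higher, and their summed CPM was 4538 to 5648 (median 4959) in E4/4 PBS and 5325 to 6076 (median 5799.8) in E3/3 PBS mice. Excitatory neurons of cortex and hippocampus had 6 of 12 markers lower, with summed CPM of 3322 to 6269 (median 4149) in E4/4 PBS and 4709 to 8148 (median 6684) in E3/3 PBS mice. Of 11 olfactory bulb markers 3 were higher, with summed CPM of 203 to 1081 (median 411) in E4/4 PBS and 239 to 560.2 (median 259) in E3/3 PBS mice. Of 8 hypothalamic markers tested 3 were higher. Over all 10 listed, summed CPM was 4.38 to 35.6 (median 15.2) in E4/4 PBS and 2.69 to 10.2 (median 4.599) in E3/3 PBS mice. Inhibitory neurons had 3 of 10 markers lower and 1 higher, endothelium 2 of 8 lower and 1 higher, astrocytes 2 of 10 lower and 1 higher, and choroid plexus 1 of 9 higher. Calb2 stands in both the inhibitory and the olfactory bulb list, so these lists are not separate. Of 7 thalamic markers 1 was higher, and none of 9 striatal, 10 microglial, 6 oligodendrocyte precursor or 6 hindbrain markers tested was called. Of 10 oligodendrocyte markers 6 were higher, with summed CPM of 5744 to 7556 (median 6782) in E4/4 PBS and 5372 to 6517 (median 5751) in E3/3 PBS mice. All 5 blood markers were lower, with summed CPM of 3.66 to 15.01 (median 6.81) in E4/4 PBS and 7.67 to 113 (median 30.7) in E3/3 PBS mice. Of all these markers 1, of hindbrain, was at 0 in every library. Their part in the presynaptic result was not tested.

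Other presynaptic genes were taken as 6 lists, of which 132 genes were tested: 40 were lower and 9 higher in E4/4 PBS than in E3/3 PBS mice, and the median log2 fold change was −0.08. D4F gave 0 calls among them in E4/4 mice, and 5 lower and 3 higher in E3/3 mice. Over all genes tested 10.5% were lower and 9.89% higher between the genotypes in vehicle mice. With D4F, 0% were called in E4/4 mice, and 1.44% were lower and 1.81% higher in E3/3 mice. The counts per list below stand beside these shares. Some genes of the 6 lists, among them Slc17a7 and Slc32a1, also stand in the marker lists above. Of 28 further vesicle membrane genes and transporters 8 were lower, led by Atp6v0a1 (−0.39 ± 0.05), a proton pump subunit, and Syt5 (−0.48 ± 0.09), a synaptotagmin. In that list 3 were higher, among them Scamp1 (0.23 ± 0.06), a carrier membrane protein, and Syt6 (0.62 ± 0.20), a synaptotagmin. Of 20 further SNARE genes 5 were lower, among them Snap47 (−0.23 ± 0.06), a relative of Snap25. The 3 that were higher included Vamp4 (0.38 ± 0.08) and Vamp3 (0.36 ± 0.08), SNAREs of endosomal traffic. Of 29 active zone genes 8 were lower and none higher, led by Ppfia3 (−0.50 ± 0.09), a liprin scaffold, and Apba2 (−0.53 ± 0.11), a Munc18-binding adaptor.

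Of 17 presynaptic adhesion genes 6 were lower, led by Nptxr (−0.59 ± 0.10), the neuronal pentraxin receptor, and Igsf8 (−0.36 ± 0.07), an immunoglobulin-family protein; Cntnap2 (0.26 ± 0.09), of the neurexin superfamily, was higher. Of 10 calcium channel genes 3 were lower, led by Cacnb1 (−0.41 ± 0.06) and Cacna1a (−0.48 ± 0.11), the pore of P/Q-type channels, and Cacna2d1 (0.27 ± 0.10) was higher. Of 28 further endocytosis genes 10 were lower, led by Pacsin1 (−0.48 ± 0.09), a dynamin partner, and Ap2a1 (−0.28 ± 0.06), a clathrin adaptor subunit, and Sh3gl3 (0.26 ± 0.09), an endophilin, was higher. The values in brackets are log2 fold changes ± SE by edgeR, with adjusted p-values between 3.3e-05 (Atp6v0a1 and Cacnb1) and 0.0447 (Sh3gl3). Over all genes tested 10.5% were lower and 9.89% higher.

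Whether the genotype difference itself differed between the sexes was tested as an interaction, which edgeR, DESeq2 and limma-voom called in 0 of the 37 genes. By edgeR 0 had an unadjusted p below 0.05, against 1090 of all 20298 genes tested, and 0% of all genes were called. Without the 2 libraries that stood apart 0 were called again, and the median interaction, the log2 genotype difference in females minus that in males, was −0.07, against 0.11 with them. The smallest p belonged to Sypl, whose log2 genotype difference was 0.53 ± 0.11 in females and 0.25 ± 0.11 in males (edgeR adjusted p = 0.907). Syp gave −0.44 ± 0.10 in females and −0.48 ± 0.10 in males. Epn1 gave −0.63 ± 0.11 in females and −0.48 ± 0.11 in males. Synpr gave 0.76 ± 0.14 in females and 0.67 ± 0.14 in males. Each of these genes had the same sign in both sexes.

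The next comparisons ask what the peptide does in each genotype. In E4/4 mice no change with D4F was called in the 37 genes: 0 passed by edgeR, DESeq2 and limma-voom. By edgeR 0 of the 37 were below an unadjusted p of 0.05, against 382 of all 20298 genes tested, and 0% of all genes were called. The median log2 fold change, D4F over PBS, was 0.03, with a range from −0.08 to 0.17. The 3 smallest p-values belonged to Nsf, Synj1 and Syn2. Nsf spanned 587 to 666 CPM (median 612) in E4/4 D4F mice, against 512 to 755 CPM (median 557) in E4/4 PBS mice, with a log2 fold change of 0.11 ± 0.07 (edgeR adjusted p = 1). Synj1 spanned 298 to 335 CPM (median 315) in E4/4 D4F mice, against 269 to 383 CPM (median 280.4) in E4/4 PBS mice, with 0.10 ± 0.08 (edgeR adjusted p = 1). Syn2 spanned 443 to 531 CPM (median 491) in E4/4 D4F mice, against 419 to 502 CPM (median 451) in E4/4 PBS mice, with 0.08 ± 0.07 (edgeR adjusted p = 1). The arms overlapped in each of these genes.

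The genes that were lower in E4/4 than in E3/3 vehicle mice had the following levels with and without D4F. Syn1 averaged 498 ± 70.3 CPM in E4/4 D4F and 500.4 ± 65.2 CPM in E4/4 PBS mice (SD, n = 8 each), and its log2 fold change was −0.01 ± 0.11. Epn1 averaged 319 ± 35.6 CPM in E4/4 D4F and 329 ± 27.2 CPM in E4/4 PBS mice, with −0.05 ± 0.08. Each of these differences was smaller than the SD between mice. Sncb averaged 298 ± 42.2 CPM in E4/4 D4F and 296 ± 39.3 CPM in E4/4 PBS mice, with 0.00 ± 0.10. Stx1a averaged 211 ± 50.3 CPM in E4/4 D4F and 204 ± 60.8 CPM in E4/4 PBS mice, with 0.05 ± 0.18. The E4/4 PBS mice here also enter the genotype comparison. Of the 21 genes called for genotype, 9 were below 0 and 12 above, between −0.08 and 0.17 on the log2 scale. A p that misses the threshold does not show that the arms are equal. Without the 2 libraries that stood apart the count was again 0 and the median of the 37 genes 0.08.

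In E3/3 mice 3 of the 37 genes (8.11%) were lower with D4F than with PBS and none was higher. The E3/3 PBS mice are the same as in the genotype comparison, so the 2 comparisons are not independent. Over all genes tested 1.44% were called lower, 1.81% higher and 3.25% in either direction. Epn1 spanned 349 to 481 CPM (median 378) in E3/3 D4F mice, against 397 to 570.1 CPM (median 497) in E3/3 PBS mice. In 6 D4F mice it lay below every PBS mouse, and the log2 fold change was −0.33 ± 0.08 (adjusted p = 0.0197). Nrxn2 spanned 188 to 267 CPM (median 234) in E3/3 D4F mice, against 245 to 359 CPM (median 281) in E3/3 PBS mice. For Nrxn2, 5 D4F mice lay below every PBS mouse, with a log2 fold change of −0.28 ± 0.08 (adjusted p = 0.042). Syn1 spanned 493 to 837 CPM (median 587) in E3/3 D4F mice, against 573 to 990.0 CPM (median 799) in E3/3 PBS mice. For Syn1, 3 D4F mice lay below every PBS mouse, with a log2 fold change of −0.39 ± 0.11 (adjusted p = 0.0449).

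Vamp2, Sypl and Synpr missed the threshold narrowly. Vamp2 had −0.24 ± 0.07 (adjusted p = 0.0515), Sypl 0.25 ± 0.08 (adjusted p = 0.0534) and Synpr 0.33 ± 0.10 (adjusted p = 0.0543) by edgeR, and DESeq2 called all 3, with 6.67% of all genes. The median log2 fold change was −0.06 over the 37 genes and 0.01 over all genes tested. Epn1, Nrxn2 and Syn1 did not pass with depth class in the model, in the higher-depth libraries alone or with GC and length trends removed. Over all genes these fits called 0%, 0% and 2.83%. Without the 2 libraries that stood apart the same 3 genes were called, with 2.18% of all genes. Single mice moved the count too. It was 0 without female E3/3 D4F mouse 2 or 3, female E3/3 PBS mouse 2 or 3, or male E3/3 PBS mouse 1 or 4. It was 1 without female E3/3 D4F mouse 1, male E3/3 D4F mouse 1 or 3, female E3/3 PBS mouse 1, male E3/3 PBS mouse 2, female E4/4 PBS mouse 4 or male E4/4 D4F mouse 3 or 4. It was 5 without female E3/3 D4F mouse 4 or male E3/3 D4F mouse 2, 6 without male E3/3 PBS mouse 3 and 7 without female E3/3 PBS mouse 4. Over all genes the share called ran from 0.477% without male E3/3 PBS mouse 1 to 10.6% without female E3/3 PBS mouse 4. Across the 37 genes the log2 fold change had a Pearson r of −0.69 with GC content in E3/3 mice and 0.01 in E4/4 mice, and across all tested genes with a GC value −0.23 in E3/3 and −0.01 in E4/4 mice. Of 8 endothelial markers 4 were lower, with summed CPM of 190.1 to 244 (median 213) in E3/3 D4F and 216 to 294 (median 244) in E3/3 PBS mice, and of 10 astrocyte markers 2 were lower. Of 10 oligodendrocyte markers 1 was higher, and of 7 thalamic markers 1 was lower. None of the 12 general neuron markers was called. Of these 12, 10 were below 0, against 9855 of all 20298 genes tested. An unadjusted p below 0.05 by edgeR was found for 4 of the 12, and for 3949 of all genes tested. The part of these cell types in the result was not tested.

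Whether D4F acted differently in the genotypes was tested as an interaction. It was called in 0 of the 37 genes by edgeR, DESeq2 and limma-voom, as in 0% of all genes tested. An unadjusted p below 0.05 by edgeR was found for 7 of the 37, and for 2113 of all 20298 genes tested. The D4F differences in E4/4 and E3/3 mice were thus not shown to differ. The interaction, D4F in E4/4 minus D4F in E3/3 on the log2 scale, was −0.33 ± 0.11 for Sypl (edgeR adjusted p = 0.283). For Nrxn2 it was 0.31 ± 0.11 (edgeR adjusted p = 0.31), and for Vamp2 0.28 ± 0.10 (edgeR adjusted p = 0.313). Syn1 had 0.38 ± 0.16 (adjusted p = 0.382) and Epn1 0.28 ± 0.11 (adjusted p = 0.351). Without the 2 libraries that stood apart 0 were called again and the median interaction was 0.22, against 0.10 with them.

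Between the genotypes under D4F, edgeR called 0 of the 37 genes, with 0.00493% of all genes tested called (1 gene). An unadjusted p below 0.05 by edgeR was found for 14 of the 37, and for 2801 of all 20298 genes tested. The median log2 fold change, E4/4 D4F over E3/3 D4F, was −0.14, and 31 of 37 genes were below 0. Over all genes tested 10189 of 20298 were below 0. Without the 2 libraries that stood apart 0 were called, with 0.313% of all genes. DESeq2 called Sncb, Rab3a and Synpr, which also had the smallest p by edgeR, and limma-voom called 0. Over all genes DESeq2 called 0.946%. Sncb spanned 229 to 344 CPM (median 308) in E4/4 D4F mice, against 313 to 482 CPM (median 380.0) in E3/3 D4F mice, with −0.39 ± 0.10 (adjusted p = 0.111) by edgeR. Rab3a spanned 443 to 554 CPM (median 479) in E4/4 D4F mice, against 526 to 738 CPM (median 567) in E3/3 D4F mice, with −0.27 ± 0.07 (adjusted p = 0.113). Synpr spanned 103 to 136 CPM (median 129) in E4/4 D4F mice, against 75.4 to 142 CPM (median 94.7) in E3/3 D4F mice, with 0.36 ± 0.10 (adjusted p = 0.129). The arms overlapped in all 3. The 5 blood markers had summed CPM of 2.32 to 43.5 (median 5.35) in E4/4 D4F and 13.1 to 63.5 (median 35.6) in E3/3 D4F mice, and none of them was called.

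Treated E4/4 mice were last set against vehicle E3/3 mice. Of the 37 genes 16 were lower and 2 higher (43.2% and 5.41%), where 9.8% of all genes tested were lower, 9.54% higher and 19.3% either. All 18 were among the 21 called in vehicle mice, and Doc2a, Nsf and Amph were not called. Both comparisons share the E3/3 PBS mice, so their likeness is not a result. Epn1 spanned 245 to 353 CPM (median 330.0) in E4/4 D4F mice, against 397 to 570.1 CPM (median 497) in E3/3 PBS mice, without overlap, and its log2 fold change was −0.60 ± 0.08 (adjusted p = 3.32e-05). Nrxn2 spanned 195 to 242 CPM (median 224) in E4/4 D4F mice, against 245 to 359 CPM (median 281) in E3/3 PBS mice, without overlap, with −0.36 ± 0.08 (adjusted p = 0.00195). Synpr spanned 103 to 136 CPM (median 129) in E4/4 D4F mice, against 58.9 to 102 CPM (median 71.7) in E3/3 PBS mice, without overlap and higher, with 0.69 ± 0.10 (adjusted p = 6.95e-05). Over all genes tested, 1.31% had all E4/4 D4F mice below all E3/3 PBS mice and 0.695% had them all above.

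Markers differed here too. Of 12 general neuron markers 8 were lower, with summed CPM of 4830.2 to 5242 (median 5070.1) in E4/4 D4F and 5325 to 6076 (median 5799.8) in E3/3 PBS mice. Of 12 markers for excitatory neurons of cortex and hippocampus 5 were lower, with summed CPM of 3092 to 5237 (median 4461) in E4/4 D4F and 4709 to 8148 (median 6684) in E3/3 PBS mice. Inhibitory neurons had 3 of 10 markers lower and 2 higher, and endothelium 3 of 8 lower and 1 higher. Thalamic and hindbrain markers had 1 lower and 1 higher each. Of 10 oligodendrocyte markers 3 were higher, olfactory bulb and choroid plexus had 1 higher each, and astrocytes had 1 lower. All 8 hypothalamic markers tested were higher. Over all 10 listed, summed CPM was 11.6 to 53.4 (median 24.7) in E4/4 D4F and 2.69 to 10.2 (median 4.599) in E3/3 PBS mice. All 5 blood markers were lower, with summed CPM of 2.32 to 43.5 (median 5.35) in E4/4 D4F and 7.67 to 113 (median 30.7) in E3/3 PBS mice. Their part in the presynaptic result was not tested.

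Set over the same E3/3 PBS mice, Syn1 had a log2 fold change of −0.69 ± 0.11 in E4/4 D4F mice and −0.68 ± 0.11 in E4/4 PBS mice. Syp had −0.42 ± 0.07 in E4/4 D4F and −0.46 ± 0.07 in E4/4 PBS mice. For Vamp2 the value was −0.40 ± 0.07 in E4/4 D4F and −0.43 ± 0.07 in E4/4 PBS mice. The pair of values of a gene is set apart by its D4F difference in E4/4 mice, which was called for none of the 37 genes. Nsf had −0.15 ± 0.07 in E4/4 D4F mice (adjusted p = 0.164) and −0.26 ± 0.07 in E4/4 PBS mice (adjusted p = 0.0131). With depth class in the model 10 of the 18 genes passed, with GC and length trends removed 8, with both handled together 5 and in the higher-depth libraries alone 0. Over all genes these fits called 7.94%, 10.4%, 2.6% and 0%. The 5 genes were Syn1, Syp, Synpr, Vamp2 and Epn1. Without the 2 libraries that stood apart 20 of the 37 genes were called, where 19.6% of all genes were, and the median was −0.26 against −0.21 with them.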

How the data were processed

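Total RNA of 32 mouse brains was made into stranded mRNA libraries, per the labels' protocols. The submitters' processing notes name Trimmomatic, HISAT2, featureCounts and build GRCm38, with no versions or strand setting. The authors deposited raw counts per gene, 57010 rows by 32 libraries, of 17.8 to 45.1 M counts; 150 repeated names were handled by row. Because each library is 1 mouse, spread is between mice, and no library was a second deposit of another of its group. Libraries of different groups were not checked for this. From the counts, edgeR 4.0.16 (R 4.3.3) was run with 8 groups (genotype, sex, treatment; 4 mice each), TMM scaling, filterByExpr (minimum count 10, total 15; 20298 genes kept), the quasi-likelihood test and Benjamini-Hochberg adjustment over all genes; a call is an adjusted p below 0.05. The test was checked on simulated counts without shifts by depth, GC content or library numbering, so the check does not cover these. Alternatives were DESeq2 1.42.0, limma-voom (limma 3.58.1), DESeq2 size factors, no filter, replicate block, additive sex, depth class (26 M counts), thinning, higher-depth libraries, GC and length removal and leaving out each library. GC content and lengths came from GENCODE M21, promoter windows from RefSeq, where 7 genes had no match. The members and all gene and marker lists were chosen with earlier results of these data known. All 37 genes are reported by role, with values by mouse for those called and, where none was called with D4F, for the 3 with the smallest p. From each further list the 2 called genes with the smallest p in each direction are named, except 1 that is not reported here.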

Additional observations from a re-analysis of the deposited data

Results flagged for a closer look

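In 24 of 148 combinations of a gene and an arm, the highest or lowest of the 8 mice lay further from its nearest neighbour than Dixon's 95% critical value allows. For independent values chance alone gives about 1 in 20. The genes of a mouse share 1 library and are not independent, so the 24 were not tested against that share. These values are TMM-scaled CPM, with the nearest other mouse of the arm beside each. The female E4/4 PBS mouse 1 was the high extreme for Syngr1 (566 CPM, nearest 438), Sv2b (507 CPM, nearest 367), Syt1 (1839 CPM, nearest 1472), Snap25 (3967 CPM, nearest 2852), Nsf (755 CPM, nearest 582), Unc13a (577 CPM, nearest 435), Rims1 (276 CPM, nearest 195), Bsn (485 CPM, nearest 339), Pclo (265 CPM, nearest 215), Dnm1 (1175 CPM, nearest 885), Synj1 (383 CPM, nearest 306). It held 11 of the 24 values, and its library has 19.6 M counts, the only E4/4 PBS library under 26 M. The female E3/3 PBS mouse 1 was the low extreme for Syt1 (1209.9 CPM, nearest 1521), Snap25 (1659 CPM, nearest 2738), Rims1 (111 CPM, nearest 193), Bsn (301 CPM, nearest 432), Pclo (135 CPM, nearest 200.3). With both libraries left out, 27 of the 37 genes were called between the genotypes in vehicle mice, against 21 with them. Over all genes tested 25% were called without them and 20.4% with them. The libraries were picked by these same values, so the larger count is not a result.

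The male E3/3 D4F mouse 1 was the extreme of its arm for Synpr (142 CPM, nearest 101). The female E4/4 D4F mouse 4 was the extreme of its arm for Syngr3 (144 CPM, nearest 155). The male E4/4 D4F mouse 2 was the extreme of its arm for Syt2 (79.9 CPM, nearest 51.6), Vamp1 (189 CPM, nearest 144). The female E3/3 D4F mouse 2 was the extreme of its arm for Syt2 (88.2 CPM, nearest 55.6). The female E3/3 D4F mouse 4 was the extreme of its arm for Vamp2 (1511 CPM, nearest 1255), Epn1 (481 CPM, nearest 398). The female E3/3 PBS mouse 2 was the extreme of its arm for Cplx2 (1655 CPM, nearest 1364).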

How the results depend on the processing

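No called gene changed direction in any alternative. Of the 21 genes called between the genotypes in vehicle mice, 20 passed with DESeq2 size factors, 21 with DESeq2, limma-voom, additive sex or thinning to the smallest library, and 16 with no filter; the count was 11 with depth class in the model, 11 with GC and length trends removed, 5 with both and 0 in the higher-depth libraries. Leaving out 1 library gave 16 to 23, where 15% to 23.5% of all genes were called. Over all genes the share was 20.5% with DESeq2 size factors, 22.8% with DESeq2, 20.7% with limma-voom and 20.6% with additive sex. It was 21.3% with thinning, 8.51% with no filter, 6.34% with depth class and 13.4% with GC and length trends removed. With both it was 2.81%, and in the higher-depth libraries 0.0179%. For D4F in E3/3 mice 3 genes passed. The count was 5 with DESeq2 size factors, 6 with DESeq2, 5 with thinning and 1 with no filter. It was 0 with depth class, with GC and length trends removed, with both or in the higher-depth libraries. Over all genes these 8 fits called 3.59%, 6.67%, 3.74%, 0.989%, 0%, 2.83%, 0.00985% and 0%. Leaving out 1 library gave 0 to 7 for these mice, where 0.477% to 10.6% of all genes were called. Between treated E4/4 and vehicle E3/3 mice 18 passed. The count was 10 with depth class, 8 with GC and length trends removed, 5 with both and 0 in the higher-depth libraries. Over all genes these fits called 7.94%, 10.4%, 2.6% and 0%. Leaving out 1 library gave 15 to 19 here, where 14.2% to 22.8% of all genes were called. Between the genotypes under D4F 0 passed, against 3 with DESeq2, which called 0.946% of all genes. The interaction had 0, and 0 to 1 with 1 library left out (1 without female E3/3 PBS mouse 4, where 1.47% of all genes were called). D4F in E4/4 mice and genotype by sex had 0 throughout. The cause of these shifts was not tested; the higher-depth libraries include 2 of E3/3 PBS. The replicate numbers did not pair the mice: of 112 same-number pairs 41 correlated above 0.1 (median 0.0059), and 8 of 32 mice correlated best with their own number. With the replicate block 18 of the 21 passed between genotypes (Syt7, Cplx2 and Amph did not). For D4F in E3/3 mice 1 of 3 passed, and for treated E4/4 mice 17 of 18. Over all genes this fit called 20%, 2.98% and 18.9% in the 3 comparisons. Sncg and Sv2c varied most between mice (coefficients of variation of 46.6% and 40.2%), so small differences in them were not detectable.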
